A study of Mus musculus with 54 samples.

Results

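Chromatin loops that join the neighbourhood of one gene to that of another were taken from Hi-C loop lists of gemcitabine-resistant (GR) and parental (Pa) mouse pancreatic cancer cells. A loop was included when it lay on an autosome and its anchor starts were at least 35 kb and less than 400 kb apart. No border of a topologically associating domain of its own condition could lie between the anchors at more than 20 kb from both of them. Each anchor bin of 5 kb also had to lie within 5 kb of an end of a protein-coding gene of mm10, with at least 1 pair of different genes across the loop. This left 912 of the 7169 GR loops (12.7%, 95% interval 12.0 to 13.5) and 941 of the 6829 Pa loops (13.8%), 1853 of 13998 loops in all. In 60 of the GR loops (6.58%) and 72 of the Pa loops (7.65%) some gene also had an end at both anchors. The included loops made up 17.2% of the 5288 GR and 18.4% of the 5106 Pa autosomal loops of that span within a domain. Called gene-to-gene loops here, they are set beside loops of the same span with a gene end at only 1 anchor (2035 GR and 1997 Pa, gene-to-site loops) and with none (2313 GR and 2143 Pa).

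The study compared mouse pancreatic tumour cells made resistant to gemcitabine, a nucleoside analogue that stops DNA synthesis, with the cells they came from. The GR Hi-C samples carry the genotype label gemcitabine resistant and received gemcitabine in DMSO, and the Pa samples carry the genotype label WT and received DMSO, with 3 samples in each group. All are labelled as a line from a primary pancreas tumour, so resistance and drug exposure cannot be told apart, and the series text names doxorubicin where the sample labels name gemcitabine. Each condition has 1 loop list and 1 domain list, so differences between conditions have no replicate error and none was tested. Shares carry exact Clopper-Pearson 95% intervals, which cover counting error only, and read depth is unknown. The lists hold no expression values, so the labelled cell type could not be checked against its marker genes. Each p below is the authors' caller p of that loop, used to rank loops within a list.

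In Hi-C, DNA ends close together in the nucleus are ligated and sequenced as pairs, and a loop is a pair of sites in contact more often than the background of their distance. Many loops form where the ring complex cohesin extrudes DNA until CTCF, a zinc finger protein bound to its motif, stops it. Others bring promoters together with enhancers or with promoters of other genes. A gene end near an anchor can be either the start or the tail of the gene, and the anchor can also lie on a regulatory element beside it.

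The stretches of DNA below are the 250 bases before the annotated starts of genes at both anchors of 4 loops, from the RefSeq promoter table (GRCm38.p6, the mm10 assembly), each 5′ to 3′ on the strand of its gene. They belong to the lead pair of each class with a start within 5 kb of both anchors. These are Prxl2c and Cdk20 among loops found in both lists, and Adra2b and Gpat2 among loops of the GR list alone. Nemf and Vcpkmt lead among loops of the Pa list alone. Pink1 and Mul1 were added because both encode proteins of mitochondrial quality control. Only the starts of Cdk20 and Adra2b lay inside an anchor bin, and the others lay from 1.3 kb (Pink1) to 4.8 kb (Gpat2) outside it. Capitals mark the GC box GGGCGG bound by Sp and Klf factors and the CCAAT box CCAAT bound by NF-Y, on either strand. The windows are chr13:64312711-64312960 (minus strand) for Prxl2c, chr13:64432303-64432552 (plus) for Cdk20, chr4:138326297-138326546 (minus) for Pink1 and chr4:138434422-138434671 (plus) for Mul1. Adra2b is at chr2:127362929-127363178 (plus), Gpat2 at chr2:127424949-127425198 (plus), Nemf at chr12:69357177-69357426 (minus) and Vcpkmt at chr12:69583018-69583267 (minus).
Prxl2c: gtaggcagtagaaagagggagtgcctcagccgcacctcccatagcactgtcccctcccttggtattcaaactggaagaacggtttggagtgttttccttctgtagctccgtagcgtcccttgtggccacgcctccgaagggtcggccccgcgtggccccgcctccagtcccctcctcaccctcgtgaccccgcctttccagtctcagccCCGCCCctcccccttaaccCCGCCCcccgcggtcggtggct
Cdk20: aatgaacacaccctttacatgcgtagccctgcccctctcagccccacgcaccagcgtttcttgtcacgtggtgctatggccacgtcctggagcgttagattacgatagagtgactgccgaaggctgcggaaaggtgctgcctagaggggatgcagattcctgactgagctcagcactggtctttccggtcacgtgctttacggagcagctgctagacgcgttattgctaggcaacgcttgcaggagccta
Pink1: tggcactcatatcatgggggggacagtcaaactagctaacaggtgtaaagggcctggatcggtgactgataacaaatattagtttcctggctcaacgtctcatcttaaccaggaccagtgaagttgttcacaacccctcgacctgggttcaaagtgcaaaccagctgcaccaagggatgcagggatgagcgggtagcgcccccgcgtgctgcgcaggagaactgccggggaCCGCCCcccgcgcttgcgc
Mul1: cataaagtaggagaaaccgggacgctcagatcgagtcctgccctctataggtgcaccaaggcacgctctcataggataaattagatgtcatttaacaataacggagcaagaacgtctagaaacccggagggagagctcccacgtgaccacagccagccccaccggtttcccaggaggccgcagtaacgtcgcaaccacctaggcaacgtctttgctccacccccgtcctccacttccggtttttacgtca
Adra2b: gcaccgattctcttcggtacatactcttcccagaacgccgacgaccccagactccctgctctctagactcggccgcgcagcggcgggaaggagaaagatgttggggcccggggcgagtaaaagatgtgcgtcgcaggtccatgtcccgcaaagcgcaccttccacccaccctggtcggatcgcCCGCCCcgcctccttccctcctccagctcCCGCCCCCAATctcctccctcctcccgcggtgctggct
Gpat2: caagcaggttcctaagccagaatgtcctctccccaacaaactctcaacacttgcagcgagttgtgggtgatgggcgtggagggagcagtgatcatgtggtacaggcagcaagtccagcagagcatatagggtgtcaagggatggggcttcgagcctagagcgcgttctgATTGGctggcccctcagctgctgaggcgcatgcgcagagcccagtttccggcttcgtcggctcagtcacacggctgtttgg
Nemf: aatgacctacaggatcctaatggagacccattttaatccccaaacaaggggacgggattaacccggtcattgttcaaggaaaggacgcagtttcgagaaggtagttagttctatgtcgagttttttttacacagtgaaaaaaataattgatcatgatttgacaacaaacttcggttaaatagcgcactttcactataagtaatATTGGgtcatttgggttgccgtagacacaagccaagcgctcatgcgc
Vcpkmt: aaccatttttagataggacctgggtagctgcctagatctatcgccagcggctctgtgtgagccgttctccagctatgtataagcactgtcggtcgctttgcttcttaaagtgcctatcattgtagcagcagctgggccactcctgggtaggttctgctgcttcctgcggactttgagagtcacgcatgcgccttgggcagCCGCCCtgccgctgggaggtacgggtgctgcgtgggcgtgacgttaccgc

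The Prxl2c and Adra2b windows each held 2 GC boxes, and the Pink1 and Vcpkmt windows 1 each. All of these GC boxes read CCGCCC on the printed strand. Adra2b, Gpat2 and Nemf each held 1 CCAAT box, on the printed strand for Adra2b and as ATTGG for Gpat2 and Nemf. Cdk20 and Mul1 held neither. None of the 8 windows held the forkhead letters TGTTTAC, the TATA letters TATAAA or a core of the CTCF motif (CCA, any 2 bases, AG, any 2 bases, GGC) on either strand, which says only that these letters are not in these 250 bases. Over all 1305 promoter windows within 5 kb of an anchor of the GR gene-to-gene loops, 51.6% held a GC box, 35.3% a CCAAT box, 7.43% the TATA letters, 3.14% the CTCF core and 1.92% the forkhead letters. For the 1403 windows of the Pa loops these shares were 51.9%, 34.4%, 6.99%, 2.64% and 2.21%. Windows at gene-to-site loops gave 52.8% with a GC box in the GR list and 55.4% in the Pa list, and 9.51% in GR and 10.9% in Pa with the TATA letters. All 20085 windows of autosomal protein-coding genes gave 43.4% with a GC box, 35.3% with a CCAAT box, 11.7% with the TATA letters, 2.02% with the CTCF core and 2.64% with the forkhead letters. Base composition moved with this, with a median GC content of 58.0% in the GR windows and 58.4% in the Pa windows, against 56.0% over all windows, and its part in the shares was not tested.

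The first question was how many gene-to-gene loops the 2 cell states had in common. A loop counted as found if the other list held a loop whose anchors both started no more than 10 kb away. Of the GR gene-to-gene loops, 491 of 912 (53.8%, 50.5 to 57.1) were found in the Pa list, where the whole GR list gave 35.4% and GR loops of this span within a domain 41.4%. Of the Pa gene-to-gene loops, 475 of 941 (50.5%, 47.2 to 53.7) were found in the GR list, against 37.2% for the whole Pa list and 43% at this span. Gene-to-site loops stood between, at 47.4% of the GR and 49.4% of the Pa loops, and loops with no gene end gave 31.1% in GR and 33.8% in Pa. The median p was 1.12e-05 for the GR and 1.82e-05 for the Pa gene-to-gene loops, 2.13e-05 in GR and 1.79e-05 in Pa for gene-to-site loops, and 0.000376 in GR and 0.000257 in Pa for loops without a gene end. The loops without a gene end were thus the weaker calls in both lists.

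Within bins of p the classes lay closer together. Of the GR gene-to-gene loops with p of at most 1e-08, 64 of 69 (92.8%, 83.9 to 97.6) were found, against 83.1% of gene-to-site loops and 89.0% of loops without genes. In the Pa list the shares of that bin were 88.2%, 89.1% and 85.6% in the same order of classes. In the next bin, from 1e-08 to 1e-06, the GR shares were 77.8%, 72.7% and 76.1%, and the Pa shares 73.4%, 70.0% and 75.2%. From 1e-06 to 1e-04 they were 53.4%, 50.9% and 45.8% in GR, and 51.3%, 52.3% and 48.9% in Pa. Among weaker calls the gene-to-gene loops and the loops without genes lay further apart. From 1e-04 to 0.001 the gene-to-gene loops gave 35% in GR (27.6 to 42.9) and 33.9% in Pa (26.8 to 41.7), and the loops without genes 27.7% in GR (23.4 to 32.4) and 21.9% in Pa (17.8 to 26.6), so that the intervals were apart in Pa and overlapped in GR. At p above 0.001, 21 of 122 GR gene-to-gene loops were found (17.2%, 11.0 to 25.1) and 5.15% of the GR loops without genes (3.85 to 6.73), and in the Pa list 19.0% of the gene-to-gene loops (13.2 to 26.0) and 7.66% of those without genes (5.96 to 9.65). Gene-to-site loops of that weakest bin gave 14.1% in the GR and 15.7% in the Pa list, within the intervals of the gene-to-gene loops.

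**Figure D1:**
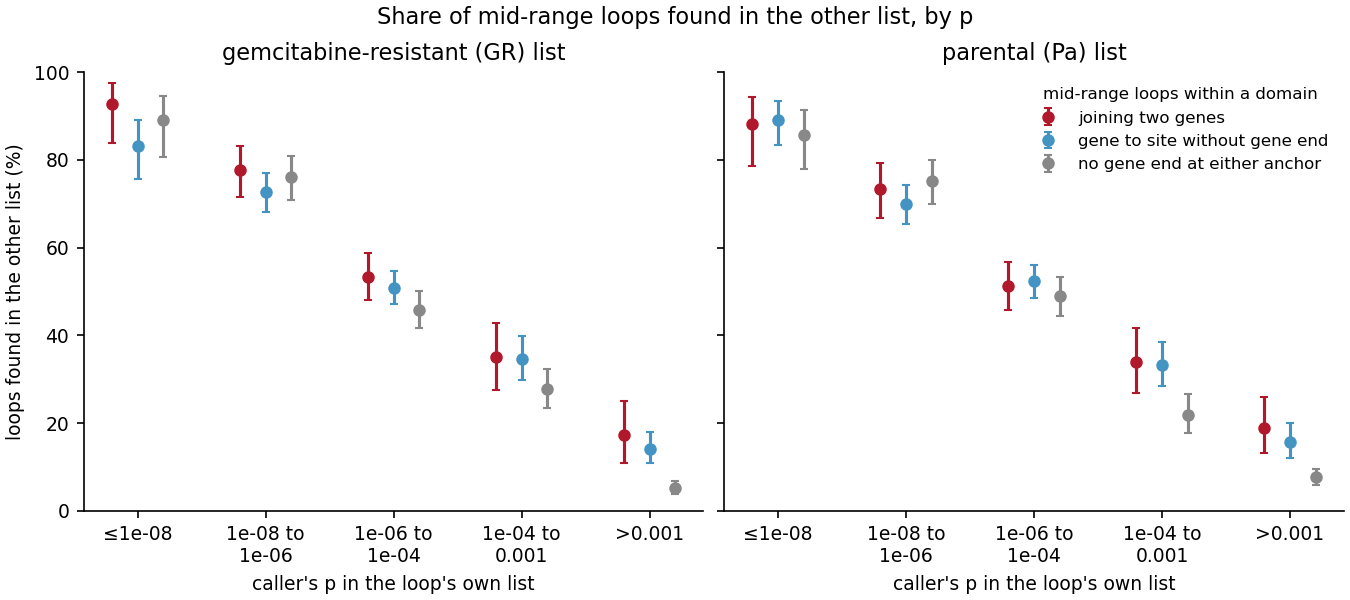
Share of mid-range loops found in the other list (y axis, %) by the caller's p in the loop's own list (x axis), GR list left and Pa list right, for loops joining 2 genes, gene-to-site loops and loops with no gene end; bars are exact 95% intervals. Shares fall with weaker p in every class, from 92.8% to 17.2% for the GR and from 88.2% to 19.0% for the Pa loops joining 2 genes, and the intervals of these loops and of loops with no gene end are apart above p 1e-04 in the Pa list and above 0.001 in the GR list.

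Of the 491 GR loops found, 209 lay at identical bins and 413 had a partner that was itself a gene-to-gene loop. For the other found loops the partner, up to 10 kb away at an anchor, did not meet the rule itself. Among the 421 GR gene-to-gene loops without a partner (46.2%, where all GR loops gave 64.6%), neither anchor was in use by any Pa loop for 201 (47.7%), 1 anchor was for 155 (36.8%) and both were for 65 (15.4%). The 466 Pa loops without a partner (49.5%, where all Pa loops gave 62.8%) divided into 47.4% with neither anchor in use by a GR loop, 39.7% with 1 and 12.9% with both. Loops outside the gene-to-gene class were not divided in this way, so the division cannot be called particular to gene-to-gene loops. Few of the loops without a partner were a known pair at another pair of bins: 8 of the 421 GR loops and 17 of the 466 Pa loops joined a gene pair that the other list joined elsewhere. In gene pairs, 1869 were joined in the GR list and 1928 in the Pa list, and 784 in both, which is 41.9% of the GR and 40.7% of the Pa pairs.

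The gene-to-gene loops were short for their range. The median span was 95 kb in the GR and 90 kb in the Pa list, while gene-to-site loops had medians of 110 kb in GR and 115 kb in Pa and loops without genes 140 kb in GR and 130 kb in Pa. No protein-coding gene lay wholly between the anchors of 393 GR loops (43.1%) and 419 Pa loops (44.5%). A gene that reached or spanned an anchor was not counted, so the joined genes need not be neighbours. Up to 17 genes lay wholly between the anchors of a GR loop and up to 20 between those of a Pa loop. Loops with no gene wholly between were found in the other list in 57.0% of GR and 52.5% of Pa cases. Those with 3 or more gave 41.3% in GR and 38.3% in Pa. Spans that are odd multiples of the 5 kb bin were the more frequent, with 58.9% of GR and 60.7% of Pa gene-to-gene loops, as in all mid-range loops (58.4% in GR and 58.6% in Pa). The lower limit of the rule falls on such a span: 57 GR and 76 Pa loops had exactly 35 kb, 13 GR and 20 Pa loops had 40 kb, and 8 GR and 13 Pa loops that met all other conditions had 30 kb. At the upper end the longest had 375 kb in the GR and 385 kb in the Pa list, and 2 Pa loops that met all other conditions had 400 kb. A gene window of 4 kb would have dropped 131 GR and 120 Pa loops, and one of 6 kb would have added 141 GR and 143 Pa loops.

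**Figure D2:**
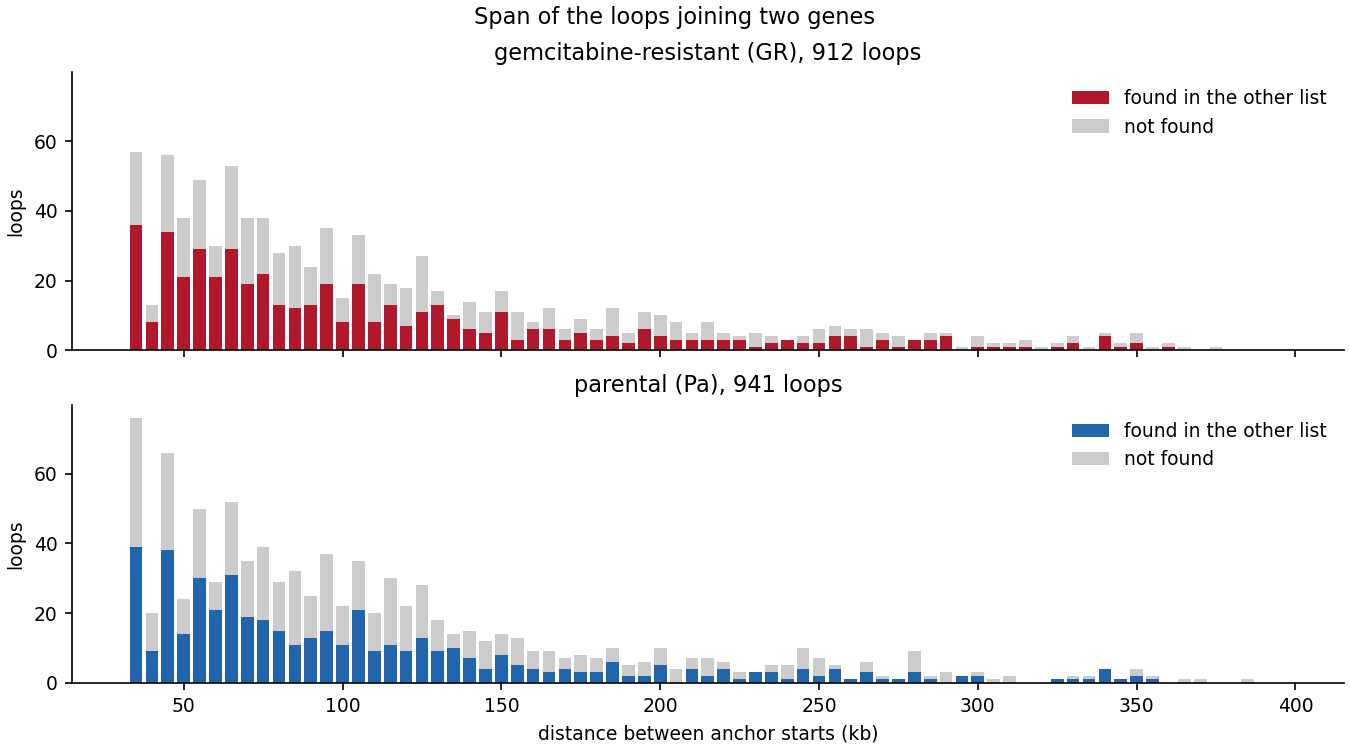
Number of loops joining 2 genes (y axis) by distance between anchor starts in steps of 5 kb (x axis), GR list above Pa list, with loops found in the other list in colour and the others in grey. Odd multiples of 5 kb stand above their neighbours, such as 57 GR and 76 Pa loops at 35 kb against 13 and 20 at 40 kb.

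A start is the part of a gene that a promoter contact would touch. Starts were known for every gene at both anchors in 576 GR and 575 Pa loops. Of these, 259 GR loops (45.0%) and 274 Pa loops (47.7%) had a start at both anchors, 39.9% of GR and 39.3% of Pa loops at 1 anchor, and 15.1% of GR and 13.0% of Pa loops joined gene tails without a start. The start-to-start loops were found in 119 of 259 GR cases (45.9%, 39.8 to 52.2) and 113 of 274 Pa cases (41.2%, 35.4 to 47.3), where loops with 1 start gave 59.1% in GR (52.5 to 65.5) and 55.8% in Pa (49.0 to 62.3). Their median p was higher in both lists, 2.83e-05 against 5.49e-06 in the GR list and 3.69e-05 against 5.68e-06 in the Pa list. At p of at most 1e-06 the GR shares were 74.1% (60.3 to 85.0) with 2 starts and 89.0% (80.2 to 94.9) with 1, and the Pa shares 75.9% and 80.5%. From 1e-06 to 1e-04 they were 51.8% and 55.7% in GR, and 38.7% (29.4 to 48.6) and 53.8% (42.2 to 65.2) in Pa. At p above 1e-04 they were 23.2% and 23.3% in GR, and 25.5% and 27.3% in Pa. The bin with the widest gap thus differed between the lists. Over all p, loops of gene tails without a start were found in 59.8% of GR and 66.7% of Pa cases. Gene anchors held a start in 64.1% of cases in GR and 66.4% in Pa gene-to-gene loops, and in 60.9% in GR and 63.3% in Pa gene-to-site loops. Where both anchors had 1 gene of known strand, the genes faced each other in 24.2% of GR loops and 26.2% of Pa loops, against 23.8% of all annotated pairs 35 to 400 kb apart. The same strand was shared in 48.4% of GR and 51.3% of Pa loops, against 51.9% of the annotated pairs.

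The strongest GR loop of the whole list joined Ghrhr and Adcyap1r1, receptors of peptide hormones, and was found at the same span in the Pa list (p 8.23e-13 in GR, 4.47e-13 in Pa). Next among the shared gene pairs came Prxl2c, a peroxiredoxin-like gene, and Cdk20, a cyclin-dependent kinase gene, 115 kb apart on chromosome 13 (bins starting at 64315001 and 64430001), with a p of 2.61e-12 and rank 3 in the GR list. In the Pa list the matching loop had a p of 6.77e-07 and rank 1327. Pink1, a kinase that marks damaged mitochondria, and Mul1, a ubiquitin ligase of the mitochondrial outer membrane, were joined over 105 kb on chromosome 4 (138320001 and 138425001) in both lists, with a p of 5.55e-11 in GR and 2.01e-07 in Pa. Mertk, a receptor tyrosine kinase by which cells take up dying cells, was joined to Tmem87b on chromosome 2 (128695001 and 128815001) with a p of 2.33e-11 in GR and 6.5e-10 in Pa. Prxl2c to Cdk20, Pink1 to Mul1 and Mertk to Tmem87b had a gene start at both anchors.

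Other shared loops leading by their GR p joined genes of unlike function. Sort1, the sorting receptor sortilin, and the proteasome gene Psma5 were joined to Psrc1, Celsr2 and Mybphl on chromosome 3 (p 1.26e-11 in GR, 7.43e-09 in Pa). Ctbp1, a transcriptional corepressor, was joined to the repair gene Uvssa and the ubiquitin ligase gene Maea on chromosome 5 (3.16e-11 in GR, 3.36e-06 in Pa). Tet3, which oxidises methylated cytosine, shared an anchor with Bola3 and was joined over 155 kb to Dguok, the mitochondrial deoxyguanosine kinase, and Actg2, a smooth muscle actin gene (5.79e-11 in GR, 1.89e-10 in Pa). Abcc3, an exporter of organic anions, was joined to Epn3 and Spata20 over 150 kb (4.67e-11 in GR, 1.45e-09 in Pa). Fahd1 was joined to Igfals, Nubp2 and Spsb3 over 35 kb (5.79e-11 in GR, 1.95e-05 in Pa). Dcp1b, an mRNA decapping gene, was joined to Adipor2, an adiponectin receptor gene, and Cacna2d4 over 125 kb (6.04e-11 in GR, 6.58e-11 in Pa). Of these 10 loops, the shared ones with the lowest p in the GR list, 7 had the same span in both lists.

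**Figure D3:**
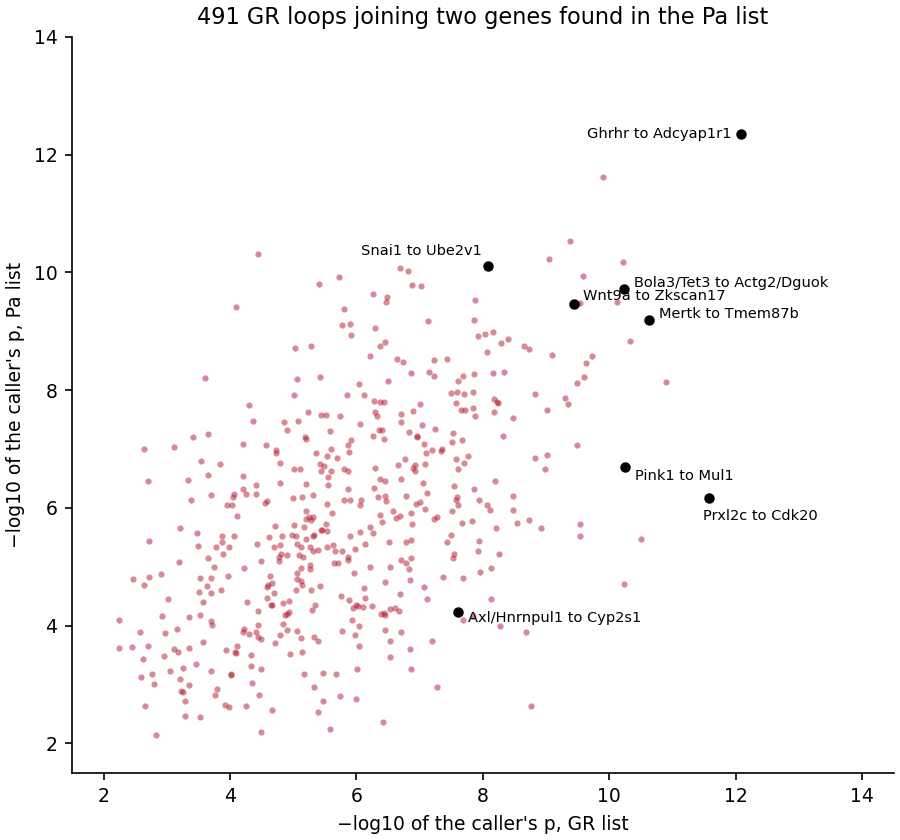
Each point is 1 of the 491 GR loops joining 2 genes that were found in the Pa list, with −log10 of the caller's p in the GR list on the x axis and that of its partner in the Pa list on the y axis; named loops are black. The p-values come from separate calls at unknown depth, so the spread shows ranks within each list: Prxl2c to Cdk20 has 2.61e-12 in GR and 6.77e-07 in Pa, and Snai1 to Ube2v1 has 8.33e-09 in GR and 7.81e-11 in Pa.

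Among loops of the GR list with no partner in the Pa list, the lowest p belonged to Ap1m2, an epithelial clathrin adaptor gene, and Slc44a2, a choline transporter gene (chromosome 9, 1.14e-10). Next was a 70 kb loop of chromosome 2 (127360001 and 127430001) from Adra2b, an alpha-2 adrenergic receptor gene, and Astl to Gpat2, an acyltransferase gene of glycerolipid synthesis, and Fahd2a, with a p of 6.24e-10 and rank 118. Neither anchor of either loop was in use in the Pa list. A 75 kb loop on chromosome 17 (35830001 and 35905001) joined Tubb5, a beta-tubulin gene, and Flot1 to Atat1, the alpha-tubulin acetyltransferase, and Mrps18b, with a p of 2.07e-09. Its Tubb5 anchor was in use by another Pa loop. Cyp17a1, a steroid hydroxylase gene, was joined to As3mt, which methylates arsenic, over 65 kb on chromosome 19 (2.24e-09). Prcc was joined over 35 kb to Hdgf, a growth factor gene, Mrpl24 and Rrnad1 on chromosome 3 (6.38e-09).

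Further GR-only loops among the 10 of lowest p held genes of G-protein signalling and of Wnt signalling. Dcp1b, joined to Adipor2 in both lists, was joined in the GR list also to Wnt5b, a Wnt ligand gene, over 215 kb (1.17e-08). Rgs2, a regulator of G-protein signalling, was joined to the deubiquitinase gene Uchl5 over 200 kb on chromosome 1 (1.64e-08). Psen2, a catalytic subunit gene of gamma-secretase, was joined to Coq8a and Cdc42bpa over 55 kb (2.12e-08). Abtb2 was joined to Nat10, an RNA acetyltransferase gene, over 150 kb (2.55e-08), and the Nat10 anchor also lay at the other end of Abtb2 itself. Of these 10 GR-only loops, 4 had neither anchor in use in the Pa list and 6 had 1.

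Among loops of the Pa list with no partner in the GR list, the lowest p belonged to a 215 kb loop on chromosome 12 from Nemf, a ribosome quality control gene, to Sos2, an activator of Ras, and Vcpkmt (1.05e-09). Sema4a, a semaphorin gene, was joined to Pmf1 and Slc25a44 over 60 kb on chromosome 3 (88405001 and 88465001), with a p of 1.51e-09. Adrm1, a ubiquitin receptor gene of the proteasome, and Lama5, a laminin gene, were joined to the ribosomal gene Rps21 and Cables2 over 75 kb on chromosome 2 (1.57e-09). Hpdl was joined to Urod, an enzyme gene of haem synthesis, and Zswim5 over 160 kb on chromosome 4 (2.95e-09). The same p belonged to a 35 kb loop on chromosome 8 (107385001 and 107420001) between Nqo1, a quinone reductase of redox defence, and Nob1, which matures ribosomal RNA. No GR loop used either anchor of the Nqo1 loop.

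A pair of chemokine receptor genes appeared at separate Pa-only loops of chromosome 9. Ccr4 was joined to Tmppe over 80 kb (3.44e-09), and Ccr8 to Xirp1 over 75 kb (5.69e-09). Adgrg5, an adhesion receptor gene, was joined to the kinesin gene Kifc3 over 265 kb on chromosome 8 (5.47e-09), and a GR loop of 155 kb joined the same genes at other bins (1.79e-05). Hbegf, a ligand gene of the EGF receptor, was joined to Cystm1 and Pfdn1 over 115 kb (5.91e-09), and the ribosomal gene Rpl14 to Eif1b over 75 kb (1.05e-08). Of these 10 loops, 6 had neither anchor in use in the GR list and 4 had 1.

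Gene pairs of 1 family were sought by a shared symbol stem, such as Cyp4f13 and Cyp4f15. Such a pair occurred at 52 of 912 GR loops (5.70%, 4.29 to 7.41) and 52 of 941 Pa loops (5.53%, 4.15 to 7.18), from 57 families, of which 23 were in both lists, 18 in the GR list alone and 16 in the Pa list alone. A family also counted as in 1 list alone where its loop was found but the partner joined no such pair, as for Kif and Klrb in GR. For comparison, 46.2% of GR and 49.5% of Pa gene-to-gene loops, and 64.6% of all GR and 62.8% of all Pa loops, had no partner in the other list. Counted as distinct gene pairs, 84 of 1869 GR pairs (4.49%) and 83 of 1928 Pa pairs (4.30%) shared a stem, below the 11.9% of all annotated autosomal pairs 35 to 400 kb apart. Of 1453 olfactory and vomeronasal receptor genes, which lie in large arrays, 26 (1.79%) had a GR gene-to-gene loop and 14 (0.964%) a Pa one. Histone genes made up 27 of the 84 GR and 27 of the 83 Pa pairs, from 3 loops of each list between gene-dense anchors of the chromosome 13 histone cluster. Without the receptor and histone genes the shares were 2.64% of GR pairs (1.95 to 3.48) and 2.71% of Pa pairs (2.02 to 3.54), against 3.26% of annotated pairs. At 35 to 75 kb they were 2.09% in GR and 2.04% in Pa against 5.96% of annotated pairs, and at 125 to 200 kb 4.05% in GR and 3.84% in Pa against 3.37%. Annotated pairs were measured between gene ends and loops between anchors, so the distances are alike but not the same. The intervals of these pair shares treat pairs as independent. A loop with several genes at an anchor gives several pairs, so they are likely too narrow.

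**Figure D4:**
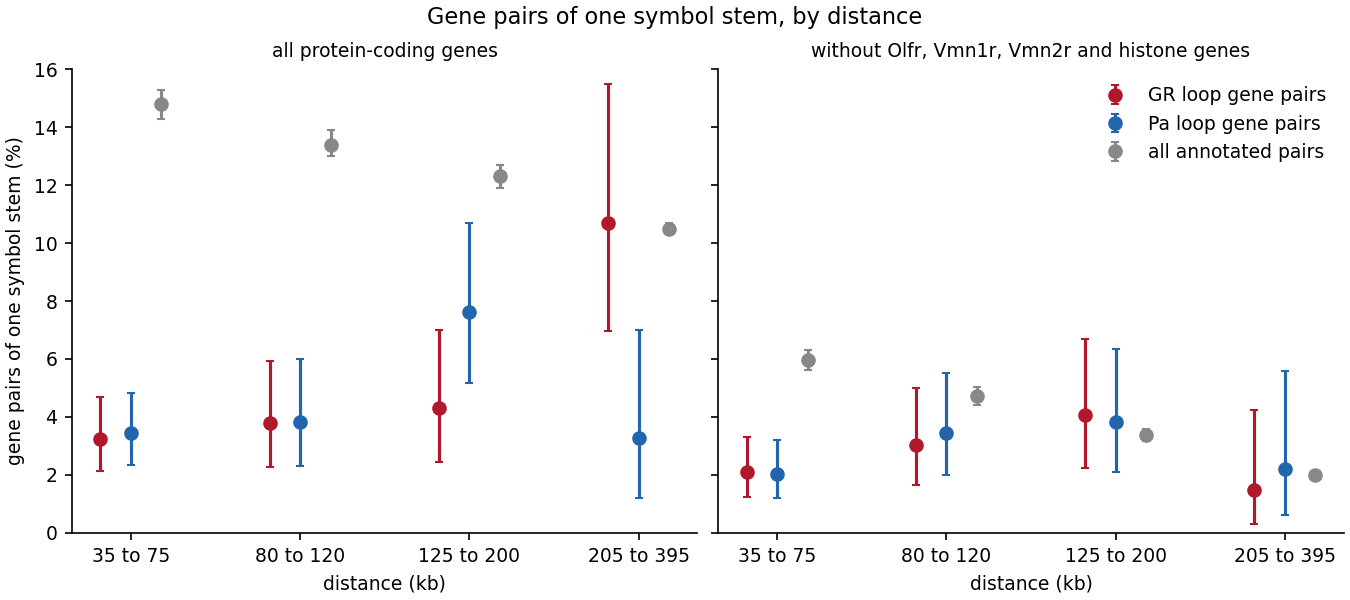
Share of distinct gene pairs with a shared symbol stem (y axis, %) by distance (x axis, kb) for GR loop pairs, Pa loop pairs and all annotated autosomal pairs, with all genes on the left and without olfactory, vomeronasal and histone genes on the right; bars are exact 95% intervals. On the right the loop pairs lie below the annotated pairs at 35 to 75 kb (2.09% in GR and 2.04% in Pa against 5.96%) and their intervals overlap the annotated share from 80 kb on.

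Families joined by a shared loop included pairs in which both genes are close relatives. Itga2 and Itga1, collagen-binding integrin genes, were joined over 125 kb in GR (p 1e-06) and 130 kb in Pa (4.54e-05). Sp2 and Sp6, transcription factor genes of the GC box family, were joined over 45 kb (2.31e-07 in GR, 2.95e-09 in Pa). Ugt2b34 and Ugt2b5, which encode enzymes that glucuronidate steroids and drugs, were joined over 255 kb (4.41e-08 in GR, 1e-07 in Pa). Wfdc3 was joined to Wfdc6a and Wfdc8, protease inhibitor genes, over 135 kb in GR (1.17e-08) and 140 kb in Pa (7.23e-07). Emc4 and Emc7, 2 subunits of 1 membrane insertion complex rather than relatives in sequence, were joined over 75 kb in GR (2.05e-08) and 70 kb in Pa (8.03e-05). Calhm4 and Calhm5, channel genes, had a p of 1.19e-07 in GR and 1.88e-07 in Pa. The histone loop of H1f4 and H2bc6 to H2ac6 and H2bc4 had 7.55e-08 in GR and 5.55e-07 in Pa.

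Other shared family loops joined Igdcc4 and Igdcc3 (1.11e-06 in GR, 1.3e-05 in Pa), and Gbp5 and Gbp3, interferon-induced guanylate-binding genes (4.86e-06 in GR, 5.32e-06 in Pa). Fabp5 and Fabp12, fatty acid binding genes, were joined over 290 kb in GR (5.16e-06) and 295 kb in Pa (1.63e-06). The chemokine genes Ccl7 and Ccl1 (1.95e-05 in GR, 2.03e-06 in Pa), the arginine deiminase genes Padi3 and Padi2 (8.88e-06 in GR, 2.46e-05 in Pa), the semaphorin genes Sema3b and Sema3f (8.62e-06 in GR, 0.000122 in Pa) and the keratin genes Krt25 and Krt28 (5.5e-05 in GR, 5.74e-07 in Pa) were joined in both. So were Taar6 and Taar8a, trace amine receptor genes (9.71e-07 in GR, 0.000546 in Pa), Cmtm3 and Cmtm4 (6.19e-06 in GR, 1.14e-06 in Pa), Olfr90 and Olfr94 (1.3e-06 in GR, 3.64e-05 in Pa), and Olfr1414 and Olfr1410 (0.0002 in GR, 2.75e-05 in Pa). Cyp4f16 and Cyp4f17, fatty acid hydroxylase genes, were joined to Cyp4f40 with 0.00195 in GR and 3.47e-07 in Pa. Family loops were found in the other list in 24 of 52 GR cases (46.2%, 32.2 to 60.5). In the Pa list 22 of 52 were found (42.3%, 28.7 to 56.8). All gene-to-gene loops gave 53.8% in GR and 50.5% in Pa, within these intervals. Of the family loops, 32.7% in GR and 25% in Pa had p above 0.001, against 12.2% and 16.3% of the other gene-to-gene loops. The exact 95% intervals of these weak-call shares were apart in GR and overlapped in Pa. The part of p in the shares of family loops found was not tested.

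Some families had different gene pairs in each list. The aldo-keto reductase gene Akr1c12, whose family reduces steroids and carbonyl compounds, was joined to Akr1c18 over 155 kb in the GR list (6.19e-06) and to Akr1c13 over 95 kb in the Pa list (8.25e-07), and neither loop had a partner in the other list. In the Lce family of the skin envelope Lce3a was joined to Lce3f in GR (4.25e-07), with a Pa partner (1.3e-06) that did not join these genes by the rule, and Lce6a to Lce1e and Lce1f in Pa without a partner (0.00212). Families paired in the GR list alone included Scd3 and Scd2, stearoyl-CoA desaturase genes (1.22e-06), Adam5 with Adam9 and Adam32 (4.86e-07), Klk14 with Klk10 and Klk11, kallikrein protease genes (5.49e-06), and Zmym5 with Zmym2 (1.85e-05). Families paired in the Pa list alone included H2-DMa and H2-DMb1, which load peptides on class II molecules (4.54e-07), Pik3r5 and Pik3r6, regulators of phosphoinositide 3-kinase (6.01e-06), Apol7e and Apol8 (5.32e-06), and Ifna15 and Ifna13, interferon genes (1.9e-05). Col6a2 and Col6a1, chains of 1 collagen, formed a gene-to-gene loop in the Pa list alone (3.58e-09), but the loop had a partner in the GR list (0.00039) that did not meet the rule itself.

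Most genes had a single gene-to-gene loop, 2056 of 2291 in the GR and 2184 of 2404 in the Pa list. Csrp1, a LIM protein gene of muscle and fibroblasts, had the most in the GR list, with 4 against 2 in the Pa list. It was joined to Tnni1, a troponin gene, by 2 loops of each list, with p 3.06e-06 and 6.19e-06 in GR and 2.65e-08 and 1.53e-06 in Pa. The other GR loops ran from Csrp1 to Lad1, a gene of the basement membrane anchor, and 1 of them also touched the end of Tnnt2 (5.55e-07), and neither had a partner. Adgrf1, an adhesion receptor gene, had the most in the Pa list, with 3 in GR and 4 in Pa. It was joined to its relative Adgrf5 by 2 loops of each list, over 195 kb (1.39e-06 in GR, 1.21e-08 in Pa) and 135 kb (8.81e-05 in GR, 6.55e-07 in Pa), and to Pla2g7, a phospholipase gene, over 345 kb in GR (5.89e-05) and 340 kb in Pa (0.000113). These were the only gene pairs with 2 loops in both lists, of 12 such pairs in GR and 16 in Pa.

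**Figure D5:**
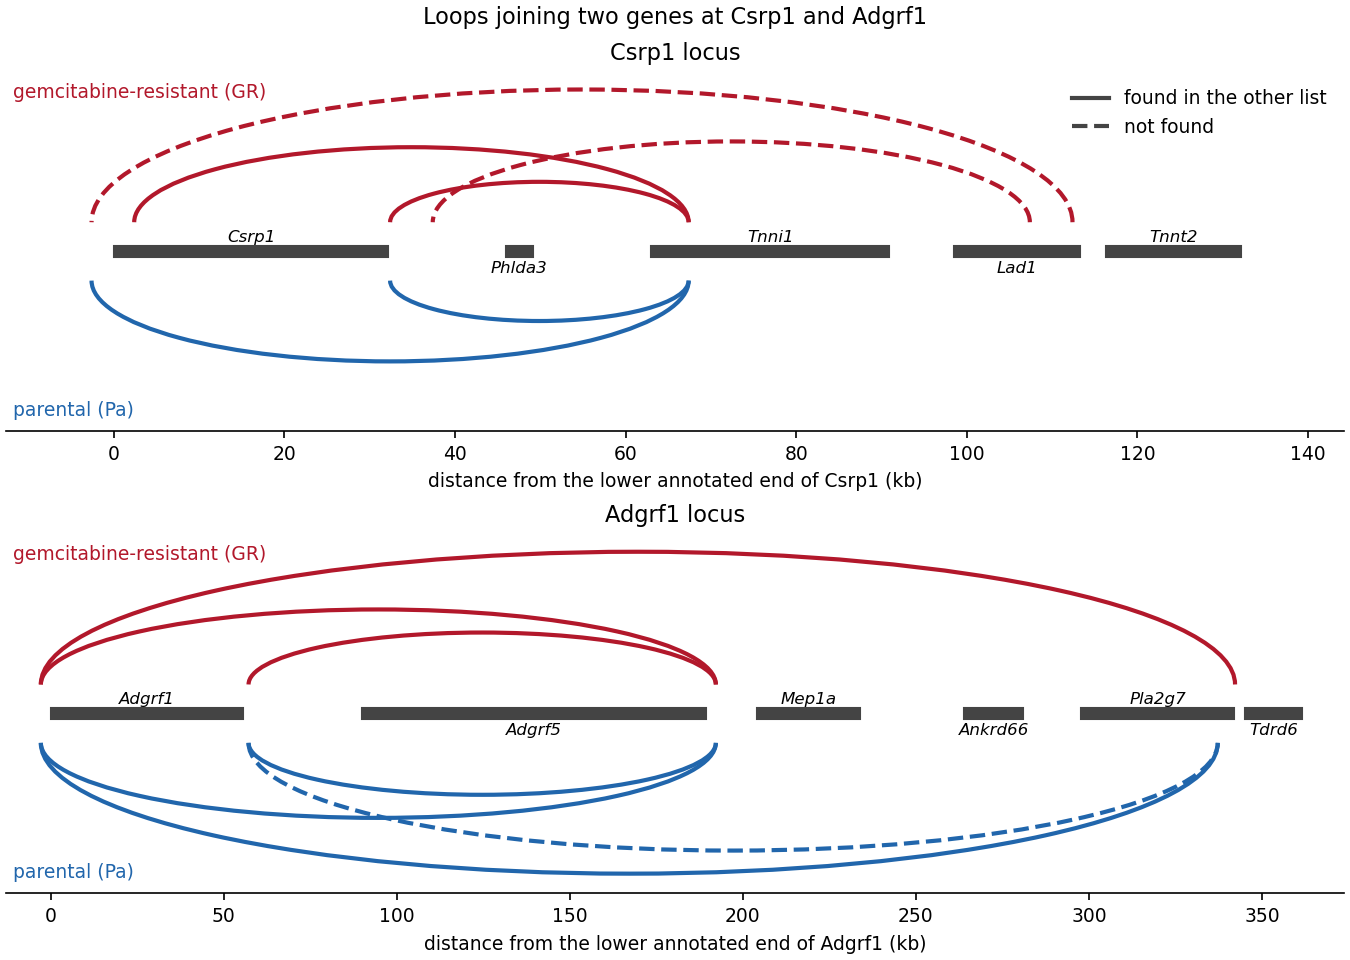
Arcs are loops joining 2 genes at Csrp1 (top) and Adgrf1 (bottom), GR above and Pa below the genes, drawn to scale by distance from the lower annotated end of the named gene (x axis, kb); arc height has no unit, and dashed arcs had no partner in the other list. Csrp1 has 4 GR and 2 Pa loops, of which 2 GR loops to Lad1 are unmatched, and Adgrf1 has 3 GR and 4 Pa loops, of which 1 Pa loop to Pla2g7 is unmatched.

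Several further pairs had 2 loops in 1 list. In the GR list these included Hif1an, which hydroxylates HIF proteins, with Pax2, a transcription factor gene (170 and 250 kb, lowest p 4.7e-07), Fnbp1 and Gpr107 with Usp20 (2.07e-09), Ppp4r2 with Shq1 (3.68e-06), Clic4 with Srrm1 (3.57e-06), Cdkn2aipnl with Jade2 (3.85e-05), Ccr9 with Slc6a20a (5.5e-05), Golph3 with Mtmr12 (0.000122) and Cdip1 with 4930562C15Rik (4.42e-05). In the Pa list they included Slc36a1 with Atox1, a copper chaperone gene (3.24e-10), Sox13, a transcription factor gene, with Snrpe (1.14e-09), Napepld with Pmpcb (1.7e-08), Dhrs7c with Usp43 and Cfap52 (9.34e-08), and Dcaf1 with Tex264 and Rad54l2 (4.54e-07). Other doubled Pa pairs were Padi2 with Padi3 (2.46e-05), Fabp5 with Fabp12 (1.63e-06), Ctbp1 with Maea (3.36e-06), Gnl2 with 9930104L06Rik (3.84e-07), Alg9 with Sik2 (0.000691) and Med9 with Nt5m (0.00221). Fpgs, the folate polyglutamylation enzyme gene, had 3 gene-to-gene loops in each list, and Slc18b1, a polyamine transporter gene, had 3 in GR and none in Pa. Csrp1, Adgrf1, Fpgs and Slc18b1 were singled out after their counts of loops were seen.

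Of the 3522 genes at a gene-to-gene anchor in either list, 1173 (33.3%) were there in both, and 108 of these had no partner gene in common. For 72 of them no loop had a partner in the other list either. Loops without a partner were 46.2% of GR and 49.5% of Pa gene-to-gene loops, and 64.6% of all GR and 62.8% of all Pa loops. How many such genes unmatched calls alone would give was not tested. The examples that follow were chosen after their values were seen. Hdac7, a histone deacetylase gene, was joined to Tmem106c over 170 kb in GR (3.57e-06) and to Slc48a1 over 65 kb in Pa (3.24e-07). Slc48a1 also lay at the GR anchor of Hdac7, and the Pa loop touched the other end of Hdac7. Copg1 was joined to Rab7, a small GTPase gene of late endosomes, in GR (8.12e-06) and to Cnbp in Pa (4.71e-06), from opposite ends of Copg1. Itpr3, a calcium channel gene of the endoplasmic reticulum, was joined to Bak1, a pro-death gene of the Bcl2 family, over 95 kb in GR (2.6e-05) and to Phf1 and Cuta over 190 kb in Pa (2.19e-05). Igfbp6, a binding protein gene of insulin-like growth factors, was joined to the keratin genes Krt8 and Krt78 in GR (1.53e-06) and to Eif4b and Tns2 in Pa (0.000185). Apart from the Pa loops of Hdac7 and Igfbp6, these calls have p from 1e-06 to 1e-04, where 53.4% of GR and 51.3% of Pa gene-to-gene loops were found.

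Of 438 listed autosomal genes of drug handling, cancer and cell identity in 18 lists, 58 (13.2%, 10.2 to 16.8) were at an anchor of a GR gene-to-gene loop and 55 (12.6%, 9.6 to 16.0) at one of a Pa loop, where all autosomal genes gave 11.1% in GR and 11.6% in Pa. Neither share stood outside what its interval allows around that background. The counts of the single lists below are small and were not tested against it. Of 28 genes of gemcitabine transport and metabolism, 6 were at a GR anchor, 3 at a Pa anchor and 1 at both. Slc29a2, an equilibrative nucleoside transporter gene, was joined to Cd248 and Tmem151a in the GR list alone (55 kb, 1.26e-06). Slc28a3, a concentrative transporter gene, was joined to Kif27 in the GR list alone (260 kb, 3.85e-05). Tk2, the mitochondrial thymidine kinase gene, had a GR loop to Cdh5 (2.65e-08) and 1 to Cmtm3 and Cmtm2b in GR alone (7.21e-05). The Cdh5 loop had a Pa partner (7.47e-07) that joined Cdh5 to Bean1 and did not lie at Tk2 by the rule. Slc29a4 was joined to Wipi2 (0.000354) and Nt5e, an ecto-nucleotidase gene, to Zfp949 (0.000546), both in the GR list alone. Samhd1, which hydrolyses deoxynucleotides, was joined to Sla2 and Rab5if in the Pa list alone (225 kb, 2.32e-05).

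Of 11 drug efflux genes, 2 were at a GR and 1 at a Pa anchor. Besides its loop to Epn3, Abcc3 was joined to Cacna1g in both lists (1.33e-07 in GR, 1.91e-06 in Pa), and Abcc10 to Tjap1 and Lrrc73 in GR alone (3.24e-07). Another GR loop joined Abcc10 to Zfp318 over 50 kb (0.000143). It had a Pa partner (1.81e-07), which was not a gene-to-gene loop of Abcc10 by the rule. Of 25 glutathione and redox genes, 3 were at a GR and 5 at a Pa anchor. Hmox1, the haem oxygenase gene, was joined to Tom1 in both (1.94e-07 in GR, 3.55e-08 in Pa), Prdx1, a peroxiredoxin gene, to Akr1a1 in GR alone (5.01e-06), and Gpx1, a glutathione peroxidase gene, to Amt, Nicn1 and Tcta in Pa alone (0.00044). Gsta1 was joined to Gm3776 in Pa alone (4.54e-05).

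Of 26 genes of mesenchymal transition, 6 were at an anchor in each list and 4 in both. Snai1, a transcription factor gene that represses epithelial genes, was joined to Ube2v1 over 75 kb (8.33e-09 in GR, 7.81e-11 in Pa), and Sparc, a matrix protein gene, to Atox1 over 55 kb (2.64e-10 in GR, 1.14e-10 in Pa). Axl, a receptor tyrosine kinase gene, was joined to Cyp2s1 over 45 kb (2.46e-08 in GR, 5.81e-05 in Pa). Mmp9, a gelatinase gene, was joined to Cd40 in a GR loop without a partner (105 kb, 1.38e-05), Cd44 to Pdhx in GR with a Pa partner (2.23e-06 in GR, 8.62e-06 in Pa), Zeb1 to Zfp438 in GR alone (2.67e-05) and Vim to Trdmt1 in Pa alone (1.74e-05). Of 32 epithelial junction and keratin genes, 4 were at a GR and 3 at a Pa anchor. Jup, plakoglobin, was joined to Fkbp10 and P3h4 (1.21e-08 in GR, 5.49e-06 in Pa), Esrp2, an epithelial splicing regulator gene, to Slc7a6os (3.06e-06 in GR, 1.85e-06 in Pa), Ocln, a tight junction gene, to its relative Marveld2 in GR alone (6.3e-05) and Krt7 to Krt80 in Pa alone (0.000105).

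Of 35 foregut and pancreatic transcription factor genes, which include the Foxa genes, 2 were at a GR and 3 at a Pa anchor, and no Foxa gene was at either. Elf3, an epithelial ETS factor gene, was joined to Gpr37l1 in both lists (2.61e-06 in GR, 4.91e-08 in Pa) and to Lmod1 and Shisa4 in GR with a Pa partner (1.58e-06 in GR, 2.23e-07 in Pa). Gata5 was joined to Cables2 and Rbbp8nl in both (5.19e-07 in GR, 1.52e-08 in Pa), and Rbpjl to Wfdc2 and Spint3 in Pa alone (4.93e-05). Of 42 Wnt and Notch genes, 4 were at a GR and 5 at a Pa anchor. Wnt9a was joined to Zkscan17 over 175 kb with 3.67e-10 in GR and 3.52e-10 in Pa. Wnt3a was joined to Arf1 in the Pa list (5.57e-06) with a GR partner (1.7e-08), Wnt6 to Cyp27a1 in the Pa list (1.48e-06) with a GR partner (8.4e-08), Wnt7a to Hdac11 in GR alone (6.99e-06) and the receptor gene Lrp5 to 1810055G02Rik in Pa alone (0.000163).

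Of 34 DNA damage and cell cycle genes, 5 were at an anchor in each list. Brca2, a homologous recombination gene, was joined to N4bp2l2 in both (3.47e-07 in GR, 0.000121 in Pa), and the Pa anchor also lay at Pds5b, a cohesin regulator gene. Cdkn1a, the p21 inhibitor of the cell cycle, was joined to Srsf3 (1.07e-06 in GR, 0.000147 in Pa), and Rpa2 to Ppp1r8 (7.47e-07 in GR, 2.32e-05 in Pa). Chek1, a checkpoint kinase gene, was joined to Stt3a (1.9e-05) and Cdc25a, a phosphatase gene, to Map4 (7.82e-05) in GR alone, and Chek2 to Ulk1 and Pus1 (4.42e-05) and Ccne2 to Ints8 (2.61e-06) in Pa alone. Stt3a also had an end at the Chek1 anchor, and Ints8 at the Ccne2 anchor. Of 24 apoptosis genes, 5 were at a GR and 3 at a Pa anchor. Fas, a death receptor gene, was joined to Ch25h in GR with a Pa partner (2.01e-07 in GR, 1.39e-06 in Pa), Casp9 to Ddi2 in both (0.000113 in GR, 8.81e-07 in Pa), Bax to Ntn5 in both (0.00236 in GR, 0.000376 in Pa) and to Tulp2 in Pa alone (4.71e-06). Bcl2l1, a survival gene, was joined to Id1 over 90 kb in Pa alone (4.1e-08).

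The other lists gave fewer loops. Of 34 inflammation and immediate early genes, 4 were at a GR and 6 at a Pa anchor. Fosb was joined to Ercc1 (4.42e-05 in GR, 0.000955 in Pa) and Atf3 to Batf3, both basic leucine zipper factor genes (6.3e-05 in GR, 0.000129 in Pa), Icam1 to Tyk2 in GR alone (9.42e-05) and Relb to Trappc6a (0.00011) and Il1r1 to Il1r2 (0.000263) in Pa alone. Of 26 cohesin, CTCF and chromatin genes, 4 were at an anchor in each list, among them Kmt2d joined to Tuba1b (8.7e-05 in GR, 5.74e-07 in Pa), Arid1a to Gm34296 (0.000132 in GR, 2.96e-06 in Pa) and Dnmt1 to Mrpl4 (3.85e-05 in GR, 0.000129 for its Pa partner). Of 30 pancreatic cancer driver genes, 4 were at a GR and 3 at a Pa anchor, among them Rnf43 joined to Supt4a (4.57e-06 in GR, 4.54e-05 in Pa). Rnf43 itself had an end at both anchors of this loop in both lists. Of 16 housekeeping genes, 3 were at a GR and 2 at a Pa anchor, with Gapdh joined to Tuba3a in GR and a Pa partner (4.25e-07 in GR, 3.24e-07 in Pa).

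Markers of other pancreatic and stromal cells were at these anchors too. Of 21 acinar markers, 2 were at a GR anchor, among them Ctrl joined to Gfod2 (1.23e-05), and none at a Pa anchor. None of 15 endocrine markers was at an anchor in either list. Over all autosomal genes, 11.1% were at a GR and 11.6% at a Pa anchor, so lists this short would hold few or none at that share. Of 12 endothelial markers, Eng and Cdh5 were at an anchor in both lists, Eng joined to Ak1 (3.31e-09 in GR, 2.96e-08 in Pa) and Cdh5 to Bean1 (2.65e-08 in GR, 7.47e-07 in Pa). Of 18 immune markers, 2 were at a GR and 3 at a Pa anchor, with Spi1 joined to Ddb2 in both (1.34e-06 in GR, 7.65e-06 in Pa), and of 14 fibroblast and stellate markers, 2 were at a GR and 3 at a Pa anchor, with Gfap joined to Dcakd in both (3.97e-07 in GR, 4.74e-08 in Pa). A loop at a marker gene says nothing here of its expression, which the lists do not hold.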

How the data were processed

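Hi-C loops and domains of GR and Pa cells were analysed, 1 list of each per condition for 3 labelled samples, so calls cannot be compared between replicates. Per the labels' protocols, chromatin was fixed with formaldehyde, cut with DpnII, filled in with biotin and ligated. The submitters' processing notes name BWA, mm10 and hg19. Not given in the sources used here are the programs that called loops and domains and any pooling of samples. The p-value of a loop, at most 0.0497 in both lists, is the authors' own per the file headers. The domain files also hold a separation score, deposited without a scale and not analysed here. Only calls past the authors' threshold were seen.

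Gene ends came from RefSeq genes of GRCm38.p6 (21900 protein-coding genes) and starts and strands from the promoter table, which covers 79.9% of them. As a check of the build, 14.8% of GR and 15.6% of Pa anchor bins held a gene end, against 10.7% and 10.9% after a shift by 100 kb. Of 1487 overlapping promoter windows on opposite strands, all read as reverse complements. Symbol stems left out predicted genes and name classes that are no family. The members, gene lists and families were chosen with earlier results of these data known. Named loops are the 10 of lowest p in each class (the GR p for shared loops), loops between genes of 1 stem, up to 6 loops per gene list with p of at most 0.001, given here by their main examples, and pairs with 2 or more loops; others are said to be chosen after their values were seen. Shares have exact Clopper-Pearson 95% intervals. Python 3.11.15, pandas 2.3.3, numpy 2.4.6, scipy 1.17.1 and matplotlib 3.10.9 were used, and the steps were tested on simulated lists. The other 48 samples and the protein sequences planned for a family check were not used here. A few loops that the naming rule covers are not reported here.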

Additional observations from a re-analysis of the deposited data

How the results depend on the processing

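The number of gene-to-gene loops depends on the gene rule and the span. It was 199 in GR and 219 in Pa with a gene end inside the anchor bin, 1493 in GR and 1548 in Pa with a window of 10 kb, 343 in GR and 375 in Pa with gene starts only, 1925 in GR and 1951 in Pa with gene bodies, and 423 in GR and 427 in Pa at spans of 100 kb or more. Under the other 9 alternatives it was 852 to 989 in GR and 865 to 1015 in Pa. The share found in the other list was 47.5% of GR and 41.1% of Pa loops with starts only, and 48.9% of GR loops with gene bodies. It was 22.9% in GR and 22.1% in Pa at identical bins, 48.6% in GR and 45.4% in Pa with a tolerance of 5 kb, and 45.3% in GR and 43.9% in Pa where the partner had to join genes too. Otherwise it stayed at 50.8 to 55.8% in GR and 47.3 to 51.6% in Pa, lists of equal length and one-to-one matching included. Family loops were 3.95% in GR and 3.84% in Pa with gene bodies, and 4.91 to 6.69% in GR and 4.80 to 6.38% in Pa otherwise. Wider windows and gene bodies add genes to each anchor by construction. Leaving out loops of exactly 35 kb, and receptor genes of the nose, were alternatives chosen after seeing the data. A family check by protein identity was not run. No paired analysis was possible because each condition has 1 list, and for that reason no replicate could be left out in turn. The unknown read depth limits what a missing partner can show.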

Other observations

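On the X chromosome, which the rule leaves out, 14 GR and 5 Pa loops met all its other conditions. The border condition removed few gene pairs: 13 GR and 14 Pa loops between different genes had a domain border between their anchors at more than 20 kb from both. Of the gene-to-gene loops, 15 GR (1.64%) and 12 Pa (1.28%) had both anchors within 20 kb of a border of their own list, and 33.2% of GR and 31.6% of Pa loops had 1. Loops with 1 anchor at a border were found in the other list in 58.1% of GR (52.3 to 63.7) and 49.8% of Pa cases (44.0 to 55.7), against 52.2% of GR and 50.9% of Pa cases with neither anchor at one. Loops with exactly 1 gene at each anchor were found in 53.1% of GR and 49.2% of Pa cases, and those with more genes in 54.5% of GR and 51.4% of Pa cases. Loops of exactly 35 kb were found in 36 of 57 GR and 39 of 76 Pa cases.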
